A study of Rattus norvegicus with 8 samples.

Results

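Of the 13 protein-coding genes of the mitochondrial genome, 6 encode the catalytic or membrane core of respiratory complexes III, IV and V. They are Mt-co1, Mt-co2 and Mt-co3 (cytochrome c oxidase, complex IV), Mt-cyb (cytochrome b, complex III) and Mt-atp6 and Mt-atp8 (ATP synthase, complex V). Their RNA was measured in rat cultures of oligodendrocyte precursor cells (OPCs), glia that divide and can mature into the oligodendrocytes that form myelin. The genes were taken by symbol from a table of 32883 genes. Of the 6 symbols, 5 matched a row exactly, and Mt-co3 is listed there as Mt-cox3 (ENSRNOG00000030700). All 6 had a mean of at least 1 FPKM and were among the 11263 genes tested. All lie on the mitochondrial chromosome, and their coordinates were not used here.

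The male group held 4 libraries and the female group 4, and sex was read from the sample titles. All cultures came from the cerebral cortex of Sprague Dawley rats of 1 to 2 days of age. OPCs were the cells of mixed glia that did not adhere, and they were grown for 4 to 5 days in Neurobasal medium with B27, glutamine, antibiotics, PDGF and FGF, of which the growth factors keep OPCs dividing. Sex is the only factor that the labels give as different between the groups. They do not tie libraries to separate animals or litters, so each p-value reflects how far these libraries spread, and that spread may be technical.

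The mitochondrial genome is transcribed into long precursor RNAs that are cut into single mRNAs, mostly at the tRNAs that lie between them, so its genes share promoters. Cytochrome b passes electrons within complex III, the 3 oxidase subunits form the catalytic core of complex IV, where oxygen is reduced, and the ATPase subunits belong to the membrane part of the enzyme that makes ATP. All other subunits of these complexes are encoded in the nucleus and imported. Oligodendrocytes need ATP for myelin membrane synthesis as they mature.

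Values are the authors' FPKM (fragments per kilobase of transcript, scaled to the mapped fragments of each library), which allow levels to be compared between genes per length. The absolute depth is unknown. Steps between low values gave depths relative to male 1 of 0.553 to 1 in male and 0.303 to 0.981 in female libraries. Total FPKM ranged from 648383 to 705322 for male and 675852 to 773919 for female libraries. The label was checked against markers. All 8 OPC markers (Pdgfra, Cspg4, Olig1, Olig2, Sox10, Ptprz1, Gpr17 and Nkx2-2) were present, with a summed level of 2061 to 2194 FPKM for male and 2501 to 2758 FPKM for female libraries. By limma (adjusted p under 0.05) 4 of 8 were called as higher in female cultures, beside 2.89% of all tested genes. The microglia list summed to 42.0 to 61.4 FPKM for male and 164 to 203 FPKM for female libraries, with 9 of 12 tested genes called as higher in female cultures, beside the same 2.89%. The neuron list summed to 197 to 219.5 FPKM for male and 174 to 193 FPKM for female libraries, with 4 of 8 tested genes higher in male cultures and Slc17a7 at 0 in every library. The astrocyte list summed to 198 to 217 FPKM for male and 194 to 214 FPKM for female libraries. Of its 6 tested genes 0 were called, beside 6.04% of all tested genes in either direction (2 with an unadjusted p under 0.05, which 21.2% of all tested genes had).

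The 6 mRNAs were more abundant in female than in male cultures, and every female library lay above every male library for each of them. The genes were chosen with their values in both sexes known, so their levels and differences are given as a description, without a test. Differences are on the log2(FPKM + 1) scale, male minus female, with the standard error of limma's fit across all genes.

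Mt-co1 (ENSRNOG00000034234) encodes the oxidase subunit that holds the heme and copper center where oxygen is reduced. It stood at 18986, 18111, 19414 and 17089.9 FPKM in libraries male 1 to 4, and at 20889, 22676, 28968 and 26324 FPKM in female 1 to female 4. The groups did not overlap, and female 3 and female 4 were the highest libraries. The means were 18400.2 ± 1028 FPKM in male and 24714 ± 3627 FPKM in female cultures (SD, n = 4 each), a log2 difference of -0.42 ± 0.10 (SE).

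Mt-co2 (ENSRNOG00000030371) encodes the subunit that takes electrons from cytochrome c. Its levels were 17789.8, 16107, 16407 and 15267.5 FPKM in male 1 to male 4, and 19568, 20596, 26371 and 21402 FPKM in female 1 to female 4. The groups did not overlap, and female 3 was the highest library. The log2 difference was -0.42 ± 0.09 (SE), with means of 16393 ± 1049 FPKM in male and 21984 ± 3019 FPKM in female cultures (SD, n = 4 each).

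Mt-co3 encodes the third core subunit of the oxidase. It was at 18744, 17149, 17089.9 and 15895 FPKM in libraries male 1 to 4, and at 20277, 21201, 27086 and 23402 FPKM in female 1 to female 4. Again the groups did not overlap and female 3 was highest. The means were 17219.7 ± 1169 FPKM in male and 22991 ± 3028 FPKM in female cultures (SD, n = 4 each), a log2 difference of -0.41 ± 0.09 (SE). The oxidase mRNAs thus had nearly the same difference in level between the sexes, and the ratio of female to male means was 1.34 for Mt-co1, 1.34 for Mt-co2 and 1.34 for Mt-co3.

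Mt-cyb (ENSRNOG00000031766) encodes cytochrome b, the only mitochondrially encoded subunit of complex III. Its levels were 8288, 7953, 8171 and 7625 FPKM in male 1 to male 4, and 10493, 11133, 14893 and 13109 FPKM in female 1 to female 4. Male libraries lay close together, and the lowest female library was 1.27 times as high as the highest male one. Of the 6 genes it had the widest difference on the log2 scale, -0.62 ± 0.10 (SE), with means of 8009 ± 291 FPKM in male and 12407 ± 1997 FPKM in female cultures (SD, n = 4 each).

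Mt-atp6 (ENSRNOG00000031979) encodes the subunit through which protons enter the ATP synthase. It was at 19498, 18223, 17886 and 17047 FPKM in libraries male 1 to 4, and at 20765, 22160.1, 30676.5 and 25167 FPKM in female 1 to female 4. The groups did not overlap, but came closest here, where the lowest female library was 1.06 times as high as the highest male one. The means were 18163 ± 1018 FPKM in male and 24692 ± 4392 FPKM in female cultures (SD, n = 4 each), a log2 difference of -0.43 ± 0.11 (SE).

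Mt-atp8 (ENSRNOG00000033299) encodes a short membrane subunit of the same enzyme. Its levels were 31476, 35975, 37596 and 32092 FPKM in male 1 to male 4, and 48889.6, 43290.4, 56334 and 47075.5 FPKM in female 1 to female 4. The groups did not overlap, and here male 1 was the lowest male library, whereas male 4 was the lowest for the other 5 genes. The log2 difference was -0.51 ± 0.09 (SE), with means of 34285 ± 2973 FPKM in male and 48897 ± 5479 FPKM in female cultures (SD, n = 4 each). The reading frames of Mt-atp8 and Mt-atp6 overlap in mammals and share a single mRNA, so reads in the shared stretch cannot be assigned to either with certainty, and the FPKM of such a short gene depends strongly on the length used.

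**Figure D1:**
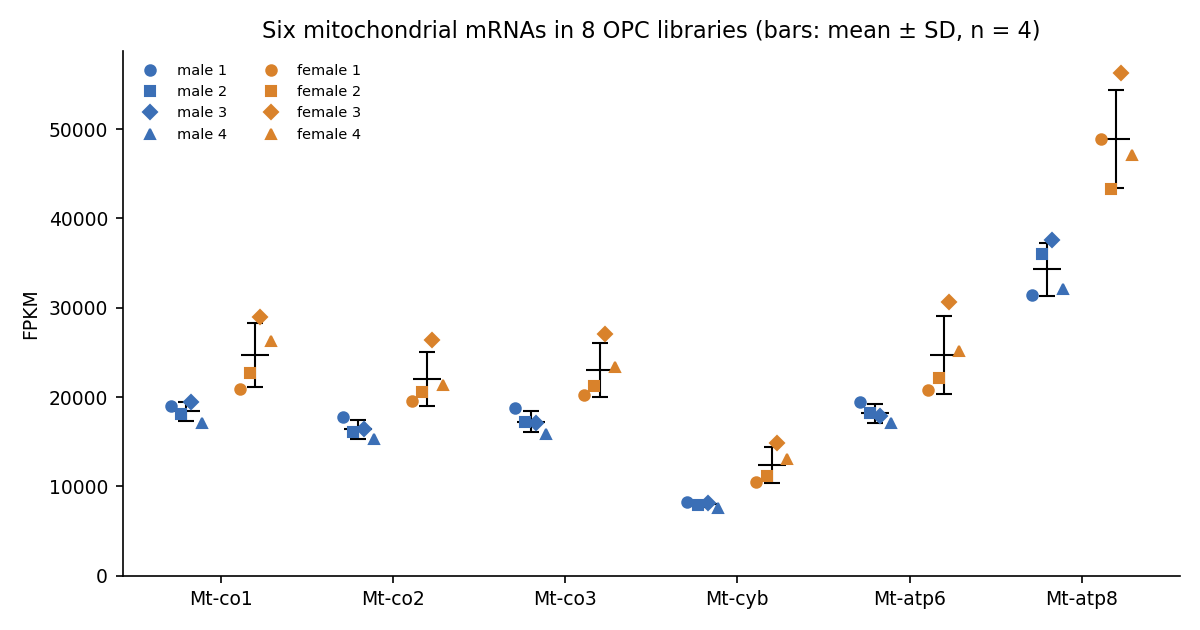
FPKM (y axis, linear from 0) of each of the 6 mRNAs (x axis) in male libraries (blue, left) and female libraries (orange, right). Each symbol is a library, and black bars give the mean ± SD (n = 4). Every orange symbol lies above every blue one of the same gene, and female 3 (orange diamond) is the highest for all 6.

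In the fit across all genes (limma with a mean-variance trend, Benjamini-Hochberg adjusted p under 0.05), 6 of 6 were called as higher in female cultures, where 2.89% of the 11263 tested genes were called as higher in female, 3.14% as higher in male and 6.04% in either direction. Groups that do not overlap were seen for 6.77% of tested genes with female higher, 7.26% with male higher and 14.0% in either direction. As the genes were chosen on this contrast, nothing is read from these counts. The number called was 5 without male 1, 4 with no filter on low values and 1 (Mt-cyb) under quantile normalization. It was 2 (Mt-cyb and Mt-atp8) with replicate number as a block, without male 2, without male 3, without male 4 or without female 4. Leaving out a single library could not change the direction of any of the 6, because their groups did not overlap.

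Summed FPKM of the 6 mRNAs is given here as a share of total FPKM, which is scaled by length. Their share of total FPKM was 16.3%, 17.0%, 17.4% and 16.2% in male 1 to male 4, and 20.8%, 20.3%, 23.8% and 22.2% in female 1 to female 4. No female library came down to the male range. The mean share was 16.7% ± 0.570 in male and 21.8% ± 1.56 in female cultures (SD, n = 4 each). Without Mt-atp8, whose FPKM rests on its short length, it was 11.6% ± 0.256 in male and 14.9% ± 1.33 in female cultures (SD, n = 4 each), and the ranges again did not overlap. By mean FPKM over the 8 libraries the 6 genes ranked 1 to 6 among 32883 genes. The cytoplasmic actin gene Actb was above Mt-cyb in all 4 male libraries and below it in all 4 female ones. Actb was at 9499 ± 107 FPKM in male and 8886 ± 423 FPKM in female cultures (SD, n = 4 each), ranges that overlapped. In such bulk cultures, fewer cells of a type and less RNA per cell cannot be told apart.

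**Figure D2:**
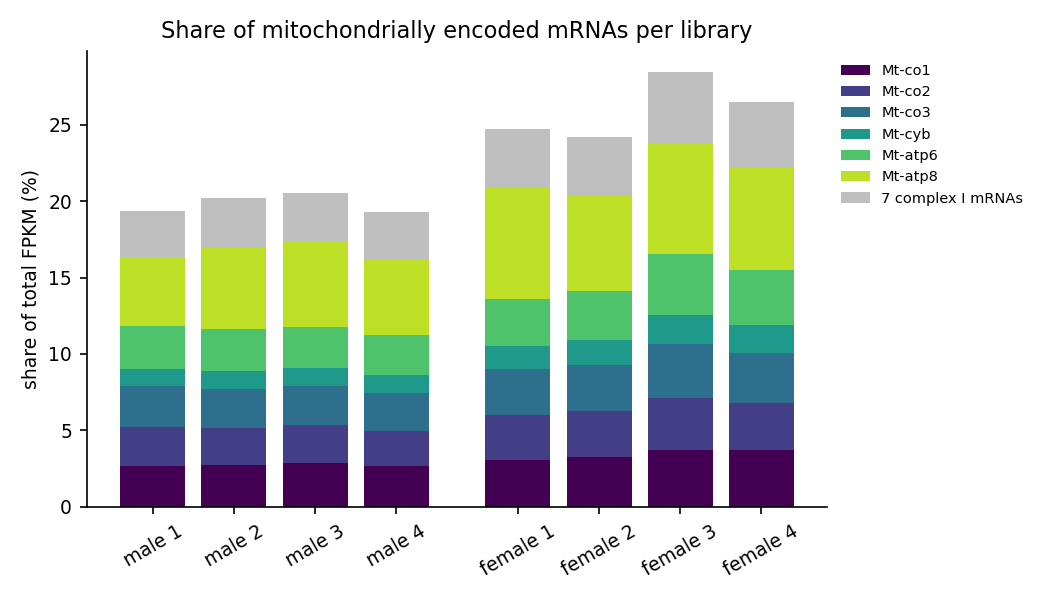
Share of total FPKM (y axis, percent) in each library (x axis, male libraries left, female libraries right), stacked by gene, with the 7 complex I mRNAs of the mitochondrial genome in grey on top. The 6 colored parts together reach 16.2% to 17.4% in male and 20.3% to 23.8% in female libraries.

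Because FPKM is a share of the library, a higher share of genes this abundant leaves less for the others. The summed FPKM of the 6 genes had a log2 difference of -0.46 (male minus female). Set against all genes outside the mitochondrial genome, it was 20.1 to 21.9 FPKM per 100 FPKM in male and 26.8 to 33.3 in female libraries, a log2 difference of -0.50. Genes outside the mitochondrial genome summed to 523212 to 568801 FPKM in male and 508716 to 553908 FPKM in female libraries, ranges that overlapped. The median log2 difference of all tested genes was -0.0038, and -0.035 after scaling each library to the genes outside the mitochondrial genome. Quantile normalization gave Mt-atp6 a log2 difference of 0.011 and Mt-co1 one of -0.01, and it set those of Mt-co2, Mt-co3 and Mt-atp8 to 0. That method gives each rank the same value in every library, and these genes hold the top ranks in all of them. Mt-cyb had a difference of -0.31 under it, and the sum of the 6 one of -0.023.

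The libraries of each sex also differed among themselves, in a way that the 6 genes shared in part. Female 3 was the highest female library for 6 of 6 genes, and female 1 the lowest for 5. Among male libraries, male 4 was the lowest for 5 genes, and the highest was male 1 for 4 and male 3 for 2. The coefficient of variation between libraries was 3.64% to 8.67% for male and 11.2% to 17.8% for female cultures, lowest for Mt-cyb in male and highest for Mt-atp6 in female cultures. Male 1 and female 3 were the deepest libraries, with relative depths of 1 and 0.981. Their deviations from the group means had a correlation of 0.242 over 11263 genes, which are not independent replicates. Of the 6 genes, Mt-atp8 deviated in opposite directions (log2 -0.119 in male 1 and 0.211 in female 3). The other 5 were above the group mean in both libraries. The log2 difference of the sum was -0.39 when both were left out and -0.57 with a depth covariate in the fit. Microglia markers were also higher in female libraries, and female 3, which had the most of the 6 mRNAs, had the lowest microglia sum among them at 164 FPKM, against 203 FPKM in female 1. The part of these cells in the difference was not tested.

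The order of the 6 genes by FPKM was nearly the same in all 8 libraries. Mt-atp8 was the highest and Mt-cyb the lowest in every one. The places of Mt-atp8 and Mt-atp6 rest on the length used and on how reads of their shared mRNA were assigned. Mt-co2 was below Mt-co3 in 8 of 8 libraries, and Mt-co3 below Mt-atp6 and below Mt-co1 in 8 of 8. Mt-co1 and Mt-atp6 changed places, with Mt-co1 above in 2 of 4 male and 3 of 4 female libraries. Mt-atp8 took 30.5% ± 2.16 of the summed FPKM of the 6 in male and 31.5% ± 2.14 in female cultures, and Mt-cyb 7.12% ± 0.135 in male and 7.95% ± 0.389 in female cultures (SD, n = 4 each). The share of Mt-cyb was the only one of the 6 whose male and female ranges did not overlap.

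Cytochrome b mRNA stood higher relative to the oxidase mRNAs in every female library than in any male one. Of 15 ratios between pairs of the 6 genes, 4 had ranges that did not overlap, and all 4 hold Mt-cyb. Mt-co1 over Mt-cyb was 2.29, 2.28, 2.38 and 2.24 in male 1 to male 4, and 1.99, 2.04, 1.95 and 2.01 in female 1 to female 4. Mt-co2 over Mt-cyb ranged from 2.002 to 2.15 for male and from 1.63 to 1.86 for female libraries. Mt-co3 over Mt-cyb ranged from 2.08 to 2.26 for male and from 1.79 to 1.93 for female libraries. Mt-cyb over Mt-atp6 ranged from 0.425 to 0.457 for male and from 0.485 to 0.521 for female libraries. The ratio of Mt-cyb to Mt-atp8 did overlap, at 0.217 to 0.263 in male and 0.215 to 0.278 in female libraries.

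Ratios among the oxidase mRNAs overlapped between the sexes. Mt-co1 over Mt-co2 averaged 1.12 ± 0.0475 in male and 1.12 ± 0.0721 in female cultures, and Mt-co1 over Mt-co3 1.07 ± 0.0511 and 1.07 ± 0.0389 in male and female cultures (SD, n = 4 each). The ratio within the ATPase pair varied more between libraries. Mt-atp6 over Mt-atp8 was 0.619, 0.507, 0.476 and 0.531 in male 1 to male 4, and 0.425, 0.512, 0.545 and 0.535 in female 1 to female 4. The highest and the lowest of these ratios were thus in male 1 and in female 1. These ratios use the same values as the levels above and are likewise given without a test.

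**Figure D3:**
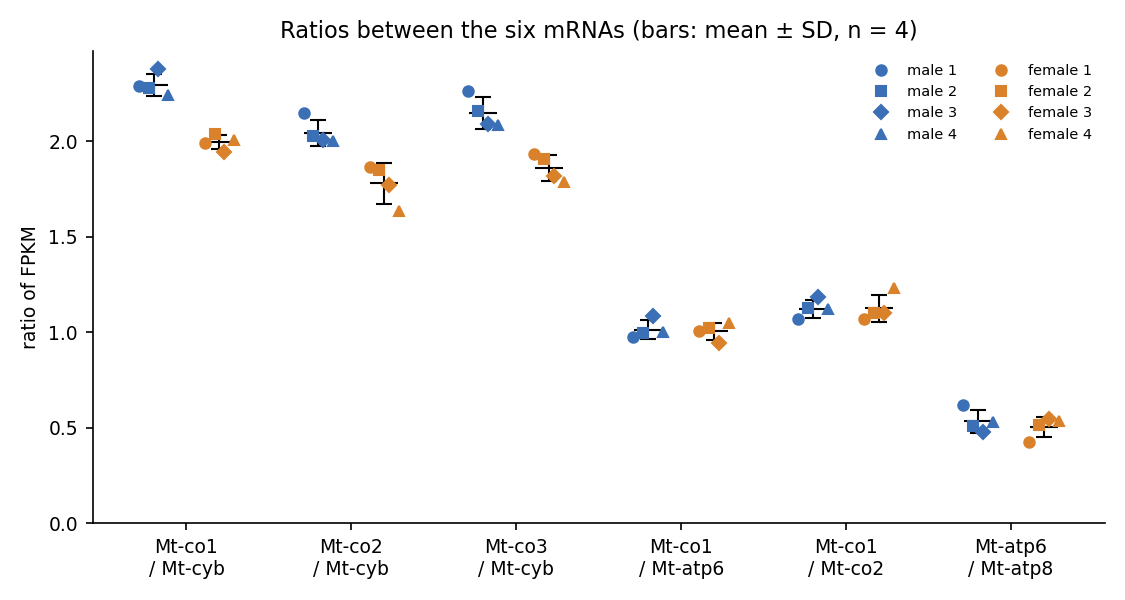
Ratio of FPKM (y axis, linear from 0) for 6 of the 15 gene pairs (x axis), by library, male (blue) left and female (orange) right, with mean ± SD bars (n = 4). The 3 ratios with Mt-cyb below the line separate the sexes, at 2.24 to 2.38 in male and 1.95 to 2.04 in female libraries for Mt-co1, and the other 3 overlap.

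The 7 remaining protein-coding genes of the mitochondrial genome encode subunits of complex I, and most of them were also higher in female cultures. By limma, 6 of 7 were called in that direction, beside 2.89% of all tested genes. This list was also chosen with earlier results of these data known, so its calls and p-values are a description. The largest difference was that of Mt-nd5 (1545 ± 116 FPKM in male and 2736 ± 410 FPKM in female cultures, log2 difference -0.82 ± 0.10, adjusted p = 0.0017). Mt-nd6, the only protein-coding gene transcribed from the opposite strand, was at 1856 ± 177 FPKM in male and 3206 ± 376 FPKM in female cultures (-0.79 ± 0.09, adjusted p = 0.0011). Mt-nd4l (-0.77 ± 0.09, adjusted p = 0.0012) and Mt-nd4 (-0.69 ± 0.09, adjusted p = 0.0020) differed by similar amounts. Mt-nd1 (-0.55 ± 0.12, adjusted p = 0.0227) and Mt-nd2 (-0.46 ± 0.10, adjusted p = 0.0212) lay in the range of the 6 genes above. Mt-nd1 and Mt-nd2 each lost their call without male 2, without male 3, without male 4 or without female 4, with adjusted p of 0.0596 to 0.0715, and so did both and Mt-nd4l under quantile normalization.

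Mt-nd3 was the exception. It was at 4806, 4224, 4389 and 3989.8 FPKM in libraries male 1 to 4, and at 3683, 4263, 4741 and 4059 FPKM in female 1 to female 4. The groups overlapped and the gene was not called (log2 difference 0.06 ± 0.08, limma adjusted p = 0.749). Its ratio to Mt-co1 ranged from 0.226 to 0.253 for male and from 0.154 to 0.188 for female libraries. Mt-nd4, Mt-nd5 and Mt-nd6 went the other way, like Mt-cyb, and all female libraries exceeded all male ones in their ratio to Mt-co1. Mean female ratios exceeded mean male ones 1.22-fold for Mt-nd4, 1.32-fold for Mt-nd5 and 1.29-fold for Mt-nd6. For Mt-nd1, Mt-nd2 and Mt-nd4l the sexes overlapped in this ratio. Mt-nd4 was listed at only 51.3 ± 2.30 FPKM in male and 84.1 ± 10.8 FPKM in female cultures, whereas Mt-nd4l, with which it shares a single mRNA in mammals, was at 1927 ± 246 FPKM in male and 3269 ± 192 FPKM in female cultures (SD, n = 4 each). Its level per length is therefore uncertain. The ratio of the 6 summed mRNAs to the 7 of complex I overlapped between the sexes, at 5.32 ± 0.110 in male and 5.22 ± 0.114 in female cultures (SD, n = 4 each). Such sums do not show the shifts of single genes given above.

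The nuclear-encoded partners of the 6 genes were read from the same fit. In lists this short, few calls do not show that the partners are alike between the sexes. Of 43 listed nuclear-encoded subunits of complexes III, IV and V, 41 matched a row and 37 were tested. By limma 1 of 37 was called (2.70%, beside 6.04% of all tested genes), and none was called as higher in female cultures (8 of 37, or 21.6%, had an unadjusted p under 0.05, beside 21.2% of all tested genes). That gene was Atp5l, subunit g of the ATP synthase, at 585 ± 40.9 FPKM in male and 483 ± 32.0 FPKM in female cultures (SD, n = 4 each), a log2 difference of 0.28 ± 0.07 and an adjusted p of 0.0430. Its call was lost in 13 of 17 alternatives, among them each library left out in turn, with adjusted p of 0.0518 to 0.121. Under quantile normalization Cox7a2l, a gene listed here under complex IV, was called as higher in female cultures in its place. The median log2 difference of the 37 was 0.07, with 27 positive and 10 negative. Leaving out male 1 turned the median to -0.0033, and a depth covariate turned it to -0.02.

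The counts by complex stand beside 6.04% of all tested genes called and 21.2% with an unadjusted p under 0.05. Within complex III 0 of 9 tested subunits were called (2 with an unadjusted p under 0.05). Uqcrc2, a core subunit, was at 145 ± 5.28 FPKM in male and 158 ± 2.99 FPKM in female cultures (limma adjusted p = 0.212), and Uqcrb had an adjusted p of 0.215. Within complex IV 0 of 13 were called (4 with an unadjusted p under 0.05). Cox5a was at 218 ± 6.89 FPKM in male and 191 ± 18.4 FPKM in female cultures (adjusted p = 0.161), and Cox7a2 at 376 ± 13.8 FPKM in male and 336 ± 20.0 FPKM in female cultures (adjusted p = 0.155). Within complex V 1 of 15 was called, and Atp5o, next to Atp5l by p, had an adjusted p of 0.151. Complex II, which has no mitochondrially encoded subunit, had 0 of 4 called (1 with an unadjusted p under 0.05), with Sdhd at an adjusted p of 0.129. Uqcrb and Cox6b1 each stand on 2 rows of the table, of which the row with the higher mean was used. Without female 3, limma called Uqcrb (adjusted p = 0.0383) and Sdhd (adjusted p = 0.00939) as higher in male cultures.

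**Figure D4:**
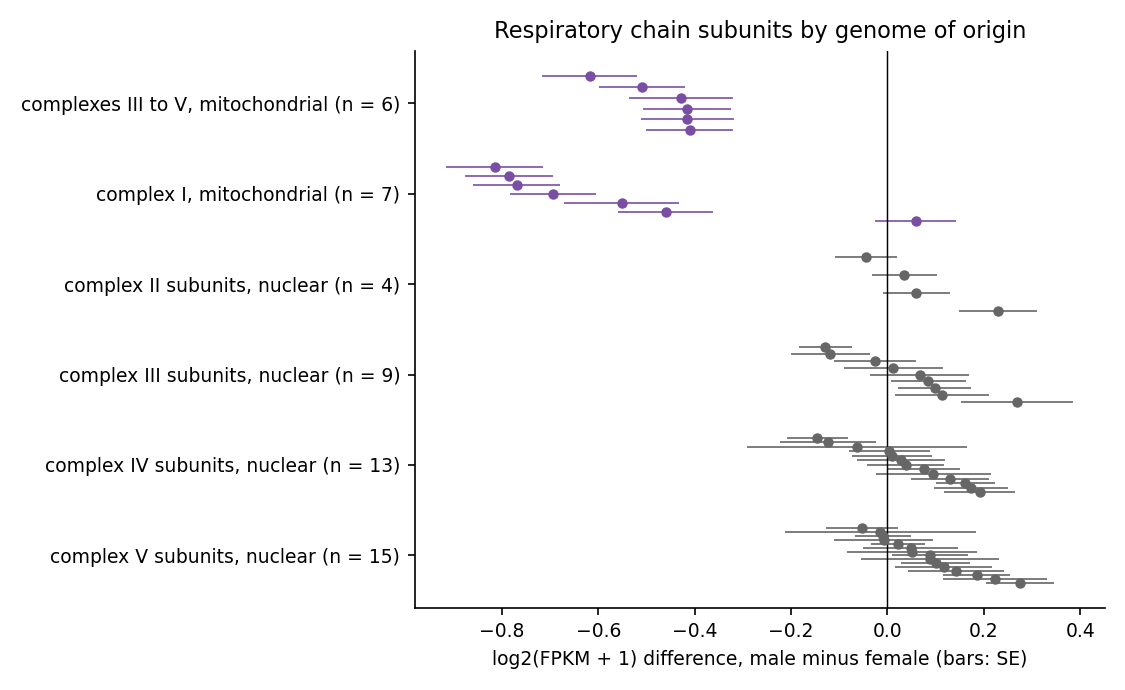
Difference in log2(FPKM + 1), male minus female (x axis, bars are standard errors), for each tested subunit gene, grouped by complex and by genome of origin (y axis). The mitochondrially encoded genes (purple) lie between -0.82 and -0.41 apart from Mt-nd3 at 0.06, and the nuclear-encoded subunits of complexes III to V (grey) between -0.15 and 0.28.

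The ratio of the mitochondrial mRNAs to the summed FPKM of their nuclear-encoded partners was higher in every female library than in any male one. The 3 oxidase mRNAs summed to 9.50 to 10.8 times the nuclear-encoded complex IV subunits in male and 12.7 to 15.1 times in female libraries. Mt-cyb was at 5.29 ± 0.281 times the nuclear-encoded complex III subunits in male and 8.33 ± 0.883 times in female cultures (SD, n = 4 each). The ATPase pair was at 6.46 to 7.97 times the nuclear-encoded complex V subunits in male and 9.25 to 11.7 times in female libraries. The nuclear-encoded subunits of complexes III to V summed to 13814 ± 1075 FPKM in male and 13331 ± 1007 FPKM in female cultures (SD, n = 4 each), and those ranges did overlap. The ratios use the levels of the 6 genes, which were chosen on this contrast. They restate that contrast and are given without a test.

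Genes that make, process or regulate mitochondrial RNA were not called in either direction by limma. Of all tested genes 6.04% were called and 21.2% had an unadjusted p under 0.05. In lists this short, 0 calls do not show that the genes are alike between the sexes. Among 14 genes of mitochondrial transcription and genome maintenance 0 were called (1 with an unadjusted p under 0.05). They include Polrmt, the mitochondrial RNA polymerase gene, at 1.66 ± 0.490 FPKM in male and 2.40 ± 0.385 FPKM in female cultures (adjusted p = 0.287). Tfam, which packages mitochondrial DNA and starts its transcription, was at 57.7 ± 3.50 FPKM in male and 50.8 ± 5.79 FPKM in female cultures (adjusted p = 0.274), and Mterf3 had an adjusted p of 0.133. Among 22 genes of mitochondrial RNA processing and stability 0 were called (2 with an unadjusted p under 0.05). Rexo2, an exonuclease gene, was at 58.2 ± 8.65 FPKM in male and 41.9 ± 6.89 FPKM in female cultures (adjusted p = 0.076, and 0.0415 without male 4), and Slirp, which protects mitochondrial mRNAs, had an adjusted p of 0.144 (0.032 without female 3).

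Assembly factors and general mitochondrial genes were not called either, beside the same 6.04% (called) and 21.2% (unadjusted p under 0.05) of all tested genes. Of 20 complex IV assembly genes 0 were called (4 with an unadjusted p under 0.05), and of 11 for complexes III and V 0 were called (1 with an unadjusted p under 0.05). Cox18, which inserts the Mt-co2 protein into the membrane, was at 5.34 ± 1.49 FPKM in male and 3.16 ± 0.692 FPKM in female cultures (limma adjusted p = 0.0956). Tmem177, which acts in the biogenesis of the same subunit, was at 5.45 ± 0.464 FPKM in male and 8.06 ± 1.89 FPKM in female cultures (adjusted p = 0.124, and 0.0325 without female 2). Of 7 regulators of mitochondrial biogenesis 0 were called (2 with an unadjusted p under 0.05), among them the transcription factor gene Nrf1 at 18.5 ± 1.55 FPKM in male and 15.2 ± 0.833 FPKM in female cultures (adjusted p = 0.120). Of 16 import, porin and matrix genes, listed as markers of mitochondrial mass, 0 were called (3 with an unadjusted p under 0.05). Their median log2 difference was 0.07, with 12 positive and 4 negative. Mitochondrial mass itself was not measured. Cycs, the gene of cytochrome c, which carries electrons between complexes III and IV, was at 123 ± 10.1 FPKM in male and 97.9 ± 11.2 FPKM in female cultures (log2 difference 0.33 ± 0.09, adjusted p = 0.0644).

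The genes outside the mitochondrial genome whose pattern was most like that of the 6 were found by the Pearson correlation of log2(FPKM + 1) with the mean of the 6 genes over the 8 libraries, which describes likeness and carries no test. The 8 points fall into the 2 sexes and share library depth. Uba1, an X-linked ubiquitin-activating enzyme gene, came first (r = 0.962) at 209 ± 4.09 FPKM in male and 223 ± 5.93 FPKM in female cultures. Acvr1b (0.957), Ephb6 (0.947), the locus RGD1564698 (0.946) and Tctex1d2 (0.944) followed. RGD1564698 was at 65.7 ± 12.2 FPKM in male and 119 ± 22.9 FPKM in female cultures (SD, n = 4 each). Most opposed were Ddr1, a collagen receptor gene (-0.961), Gpc4 (-0.958), Cd24 (-0.953), Pdlim7 (-0.949) and Igfbp5 (-0.949). Cd24 was at 4.97 ± 0.740 FPKM in male and 1.61 ± 0.712 FPKM in female cultures (SD, n = 4 each).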

How the data were processed

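RNA of 8 libraries was made with a strand-specific Agilent kit, per the labels' protocols. The deposited values are FPKM, made by the authors, per the file headers. Per the submitters' processing notes, FastQC and Trimmomatic were used. How reads were aligned and counted, with which build, annotation and strand setting, is not given in the sources used here. No count was given, so no interval from counts could be made.

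Values were taken as log2(FPKM + 1) where a gene's mean over 8 libraries reached 1 FPKM. Sexes were compared with limma 3.58.1 in R 4.3.3 (mean-variance trend, robust moderation, Benjamini-Hochberg adjustment over 11263 genes, threshold 0.05). Relative depth is the commonest ratio between low values of a library and of male 1. On simulated data with 200 changed genes the fit recovered 34.6% of changes of 0.5, 77.5% of 1 and 96.8% of 2 (log2), and 3.65% of calls were false. The simulation drew the noise of each gene independently. It left out deviations that the real libraries share across genes, so these rates may not hold for them.

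The 6 genes and the gene lists were chosen with earlier results of these data known. Named from other lists are up to 4 genes with the smallest p, from which the text gives a part, all complex I genes, and the 5 genes most and least like the 6. No row matched the symbols of the mitochondrial rRNAs. Alternatives were pseudocounts of 0.1 and 5, other filters, quantile normalization, scaling to genes outside the mitochondrial genome, a replicate block, relative depth as a covariate, a threshold of 0.1 and libraries left out.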

Additional observations from a re-analysis of the deposited data

Results flagged for a closer look

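In groups of 4 libraries, a library was picked out when its gap to the nearest other library exceeded Dixon's 95% critical value, which chance does for about 1 in 20 groups. Of 64 groups looked at, 3 met this. The ratio of Mt-co2 to Mt-co3 was 0.915 in female 4, below the 0.965 to 0.974 of the other female libraries. The ratio of Mt-co2 to Mt-cyb was 2.15 in male 1, above the 2.002 to 2.03 of the other male libraries. Mt-nd6 was at 2120.1 FPKM in male 1, above the 1754 to 1788 FPKM of the other male libraries.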

How the results depend on the processing

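The summed level of the 6 mRNAs had a log2 difference (male minus female) of -0.46, from -0.57 to -0.38 over 14 alternatives and from -0.51 to -0.38 with each library left out. Quantile normalization of the sum, an alternative chosen after seeing the data, gave -0.023, since it fixes the values of the top ranks. The count of genes differing between the sexes was 680, and 298 to 803 with each library left out (314, 298 and 364 without male 2, male 3 and male 4, 401 without female 1 and 316 without female 4). It was 397 with the replicate block, 367 with relative depth as a covariate and 1149 at a threshold of 0.1. The count of called nuclear-encoded subunits of complexes III to V was 1. It was 0 with no filter on low values, with the replicate block, with the depth covariate, without male 1 and female 3 together, and 0 to 1 with each library left out. Under quantile normalization Mt-atp6 had a difference of 0.011, Mt-co1 one of -0.01, Mt-co2, Mt-co3 and Mt-atp8 one of 0, and Mt-nd3 was called with one of -0.15. Same-numbered libraries had correlations of deviations of -0.085, 0.077, -0.064 and 0.036. Of 8 libraries, 2 correlated best with their own number. Male 1 and female 3, the deepest libraries, had a correlation of 0.242. Such values cannot decide whether the numbers pair the libraries, since depth may enter them too. The block kept 2 of the 6 genes and 5 of the 7 complex I genes called (Mt-nd1 had a limma adjusted p of 0.0541) and left the difference of the sum at -0.46. The cause of the other shifts was not tested. Depth limits genes of low level such as Polrmt more than the 6.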
